A study of Bos taurus with 15 samples.

Results

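The mutant allele of ARGFX was compared with the empty control plasmid in cultured bovine fetal fibroblasts (BFFs), cells of connective tissue that had grown out of the torso skin of a Bos taurus fetus. The comparison used 7 of the 15 samples of the RNA sequencing series, the 3 labelled mutant ARGFX and the 4 labelled control. Both groups were fibroblasts at passage 4 from 1 fetus of 6 months, whose own ARGFX is wild type on both chromosomes. Both were electroporated with a pSF-CMV-Puro-COOH plasmid and selected with puromycin at 4 μg/mL, and RNA was extracted after 72 h. In the control samples the plasmid carried no gene. In the mutant samples it carried the naturally occurring ARGFX allele with a short frameshift deletion ahead of the homeodomain, driven by the CMV promoter and joined in frame to a C-terminal tag in place of its premature stop. The 4 wild-type (WT) ARGFX samples served to show where the response to the mutant allele differed, and the 4 LEUTX samples shared the model fit. Since all samples came from a single culture, the p-values measure the spread between transfected samples of it and not between animals. The authors left out a further mutant sample because it lay among the WT ARGFX samples in a principal component plot, so that the 3 mutant samples had been chosen with their expression in view.

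ARGFX belongs to the ETCHbox genes, a group of divergent homeobox genes of placental mammals that are transcribed almost only in the early embryo, around genome activation. Homeobox genes encode transcription factors that contact DNA through the homeodomain, and a protein that ends before this domain would lack that contact. Fibroblasts do not normally transcribe ETCHbox genes, so placing the gene in them exposes which of their own transcripts move when it is present.

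ARGFX was the check on the labels. Its expected count was 191984.81, 185788.71 and 150881.97 in the 3 mutant samples. In the control samples it was 0, 0, 0 and 1. The transfected gene therefore stood apart in every mutant sample and took 0.624%, 0.651% and 0.363% of all counts. As normalised CPM, the counts scaled to library size after TMM correction for composition, ARGFX was at 6212, 6606 and 3408, a mean of 5409 ± 1744 (SD, n = 3). A gene at 3 counts in the shallowest control sample would stand at 0.114 CPM, against which ARGFX was at least 47272-fold higher with the mutant plasmid. The WT ARGFX samples held 3455 ± 703 CPM (SD, n = 4). The difference between the alleles was 0.65 on the log2 scale (SE 0.24) and did not pass edgeR's quasi-likelihood test after Benjamini-Hochberg adjustment (adjusted p = 0.275). Mutant replicate 3 fell within the WT range and the other mutant samples lay above it. The mutant plasmid carried a shorter coding sequence than the WT one, and CPM is not scaled to length. These values therefore do not compare the numbers of transcripts of the alleles.

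The other ETCHbox genes stayed near nothing. TPRX1 had at most 2 counts and TPRX2 none in any of the 7 samples, while TPRX3 had 4, 5, 2 and 8 counts in the control samples and 1, 4 and 7 with mutant ARGFX. LEUTX had 7.19, 11.29 and 1.03 counts with mutant ARGFX, against 1 in control replicate 1 and 0 in the others. It passed the thresholds (edgeR's quasi-likelihood test, log2 fold change 3.87, adjusted p = 0.0360), yet the average exceeded the expression threshold only through the LEUTX samples. Over the control and mutant samples it averaged 0.0963 CPM, and it is left out of the genes described from here on.

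Genes were called upregulated or downregulated when they averaged over 5.37 CPM in the 15 samples, changed by more than 1.5-fold and had an adjusted p under 0.05. The table held 21665 genes, of which 14264 passed edgeR's filter on low counts and were tested, and 10094 of those exceeded the expression threshold. Mutant ARGFX upregulated 116 genes, 1.15% of the genes that could be called, including ARGFX and LEUTX. It downregulated 239 genes, or 2.37%. With the expression threshold set on the control and mutant samples, 102 of the 116 upregulated and 235 of the 239 downregulated genes stayed called. The others passed the threshold of 5.37 CPM only through WT ARGFX or LEUTX samples. Leaving out ARGFX and LEUTX, 353 genes responded, 114 up and 239 down, and 67.7% of them fell; calls in either direction, with ARGFX and LEUTX, made up 3.52% of the callable genes. A total of 1461 genes had an adjusted p under 0.05 whatever their fold change and level, 607 higher and 854 lower. Among genes above the expression threshold, 419 higher and 486 lower ones passed that p but changed by 1.5-fold or less. The median log2 fold change of all tested genes was 0.00914; the scaling sets this median near 0, so changes are relative to the bulk of genes. In bulk RNA a change in the number of cells of a kind cannot be told apart from a change in RNA per cell.

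The rises were small and the falls reached much further. The 114 upregulated genes rose 1.5- to 2.25-fold, with a median of 1.61-fold, and 7 of them rose more than 2-fold. The 239 downregulated genes fell 1.5- to 16.6-fold, with a median of 1.79-fold. Of these, 79 fell more than 2-fold, 31 more than 3-fold, 15 more than 4-fold and 5 more than 8-fold. On the log2 scale the middle 50% of the rises lay between 0.63 and 0.74 and that of the falls between -1.16 and -0.70. The typical standard error of a callable gene was 0.125. Most rises were thus close to the 1.5-fold threshold, and when the test itself was set against a 1.5-fold change (edgeR's glmTreat) 62 genes passed as downregulated and 2 as upregulated, ARGFX counted among the latter.

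Each mutant sample showed the response. The median upregulated gene stood 0.68, 0.63 and 0.67 above the control mean on the log2 scale in mutant replicates 1, 2 and 3. The median downregulated gene stood at -0.79, -0.82 and -0.89. In the control samples the same medians ran from -0.07 to 0.15 for the upregulated and from -0.12 to 0.06 for the downregulated genes. Mutant replicate 3, with the lowest ARGFX level, had the lowest median of the downregulated genes and a median of the upregulated genes between those of the other mutant samples. All 3 mutant samples lay above all 4 control samples for 112 of the 114 upregulated genes, and below them for 238 of the 239 downregulated genes. Among all callable genes that separation held for 13.8% and 13.9%, and since these samples chose the genes the counts describe the genes and test nothing.

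**Figure D1:**
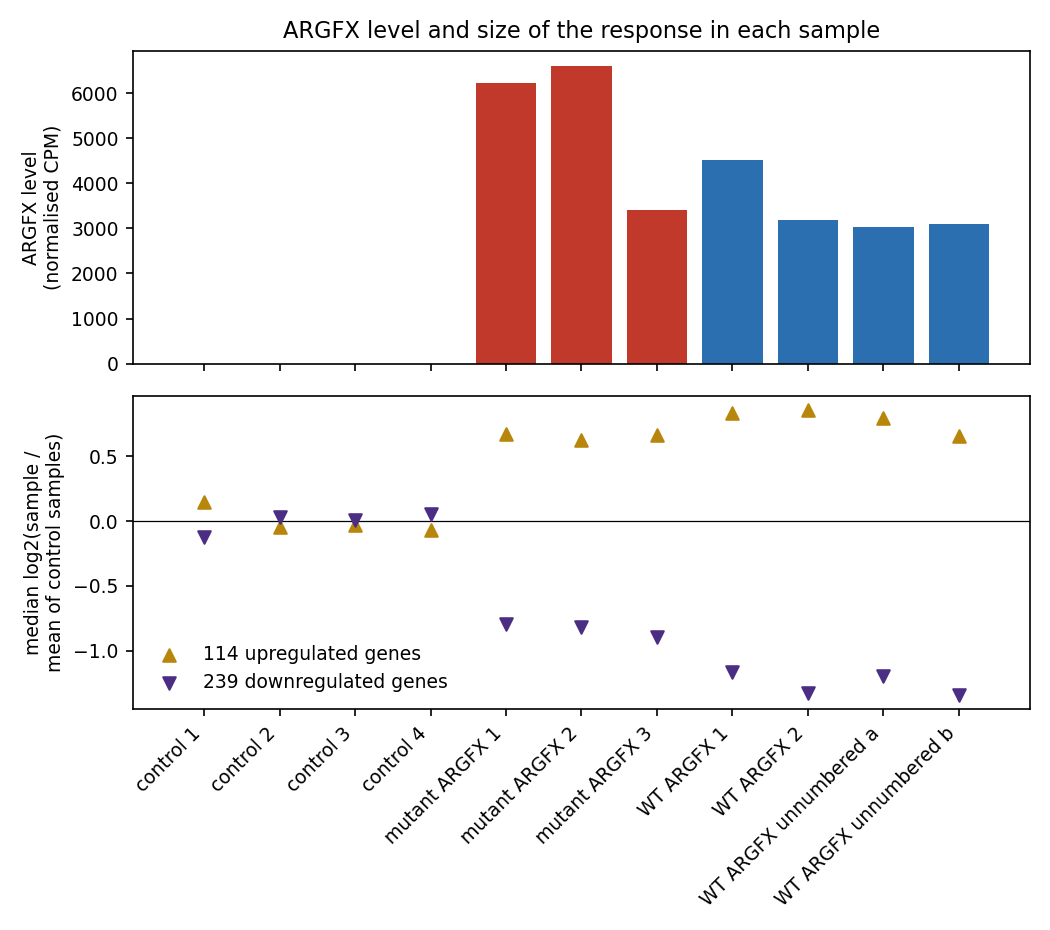
The upper panel shows the ARGFX level (normalised CPM) as 1 bar per sample, grey for control, red for mutant ARGFX and blue for WT ARGFX. The lower panel shows, for the same samples, the median log2 ratio to the control mean of the 114 genes upregulated (upward triangles) and the 239 downregulated (downward triangles) with mutant ARGFX. Mutant replicates 1 and 2 had a higher ARGFX CPM (6212 and 6606) than any WT ARGFX sample, without scaling to the shorter mutant sequence. In all 3 mutant samples the downregulated genes were less far below control than in the 4 WT ARGFX samples.

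The downregulated genes had control levels near those of all genes above the expression threshold. Their control level had a median of 33.4 CPM with quartiles of 16.4 and 85.7 and a range from 1.08 to 2384. That of all callable genes was 32.1 CPM with quartiles of 15.1 and 72.9. Upregulated genes had a lower control level, with a median of 14.5 CPM, quartiles of 6.82 and 38.6 and a range from 1.21 to 2775. This difference is not free of the expression threshold. That threshold averaged all 15 samples, so genes low in control could pass it through samples where they were higher, which favours rises. CPM values are not scaled to transcript length, so they place a gene among the others only roughly. None of the 353 genes was under 1 CPM on average in the control samples, and only 3 were under 1 CPM with mutant ARGFX. The expression threshold keeps most genes of such low level out of the calls. Below it, a further 127 lower and 64 higher genes passed the p and fold thresholds. No downregulated gene had 3 counts or fewer in any mutant sample, so every fall was measured against detectable RNA.

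By control level, the share of callable genes that fell ran from 2.16% to 3.05%, with no test of a trend. Between 5 and 20 CPM in control, 70 of 3238 callable genes fell (2.16%), and 13 of these more than 2-fold. Between 20 and 100 CPM, 113 of 4911 fell (2.30%), 39 of them more than 2-fold. From 100 to 1000 CPM, 49 of 1680 fell (2.92%), 22 more than 2-fold. At 1000 CPM or more, 4 of 131 fell (3.05%) and all 4 fell more than 2-fold. The median fall was 1.70-, 1.80- and 1.93-fold in the first 3 of these classes and 2.77-fold in the last, which holds only 4 genes. The 15 genes that fell more than 4-fold had a median control level of 34.8 CPM, the 64 that fell 2- to 4-fold one of 59.6 CPM and the 160 that fell less one of 27.5 CPM, so the deepest falls were not those of the genes with most counts. The upregulated genes made up 1.36%, 0.672%, 1.01% and 0.763% of the same 4 classes. Below 5 CPM in control 19 of 134 genes rose (14.2%) and 3 fell (2.24%, median 1.99-fold), but genes this low reached the expression threshold only through a higher level in other samples, which favours rises.

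**Figure D2:**
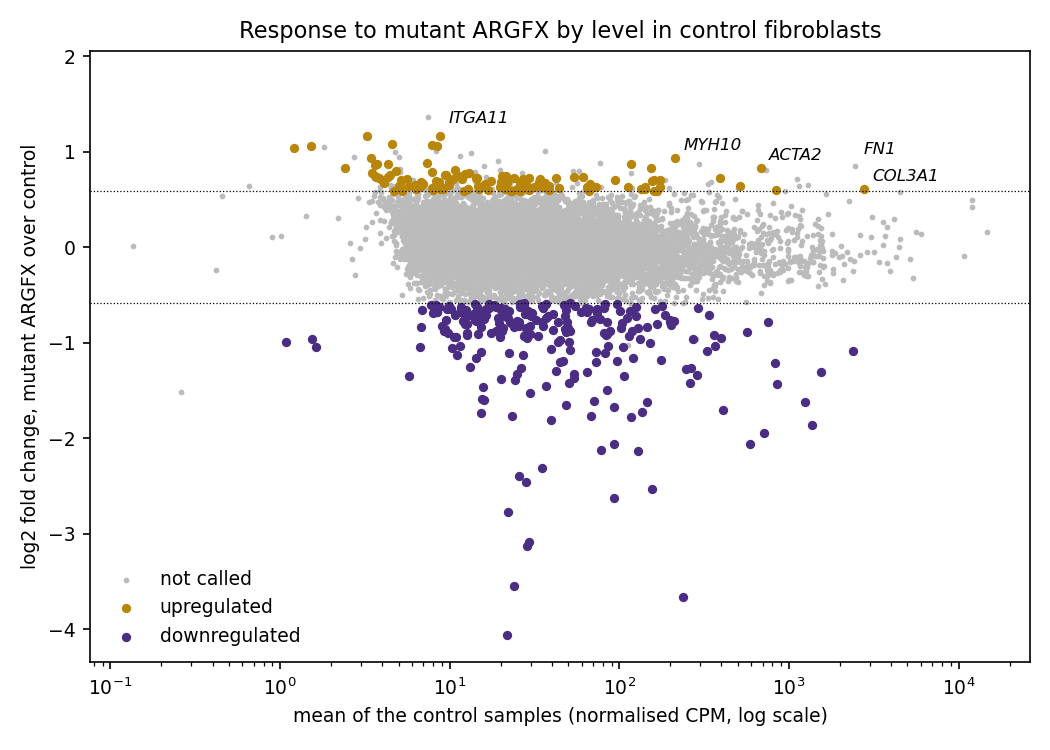
Each point is a gene that could be called, with its control mean (normalised CPM, log scale) on the x axis and its log2 fold change of mutant ARGFX over control on the y axis; ARGFX and LEUTX are left out and dotted lines mark a 1.5-fold change. Upregulated genes (gold) stay at or below 1.17 on the log2 scale, whereas downregulated genes (purple) reach -4.06 and include genes above 1000 CPM in control.

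The identity of the downregulated genes is known here only as Ensembl gene IDs. Among them the largest fall was that of ENSBTAG00000014529.5. Its normalised CPM was 16.3, 19.6, 28.8 and 22.9 in the control samples and 1.88, 0.640 and 1.38 with mutant ARGFX. The groups were far apart, and 5.93% of the control mean was left (log2 fold change -4.06, SE 0.31, adjusted p = 4.68e-06 by edgeR's quasi-likelihood test). ENSBTAG00000016061.4 was at 156, 257, 243 and 290 CPM in the control samples. With mutant ARGFX it was at 24.2, 10.8 and 20.7 CPM, 7.85% of the control mean (log2 fold change -3.67, SE 0.29, adjusted p = 1.66e-06 by edgeR's quasi-likelihood test). In both genes mutant replicate 2 was the lowest sample. The same held for 12 of the 15 genes that fell more than 4-fold, whose median level was 20.3%, 11.97% and 17.4% of the control mean in mutant replicates 1, 2 and 3. Mutant replicate 1 was the highest of the mutant samples for 13 of them, although it had more ARGFX than replicate 3. The 4 downregulated genes above 1000 CPM had control means from 1239 to 2384 CPM and mutant means from 377 to 1121 CPM, and were left with 27.5% to 47.0% of the control level. Together the 239 genes held 2.53% ± 0.25 of all normalised counts in control (SD, n = 4) and 1.14% ± 0.10 with mutant ARGFX (SD, n = 3).

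Where the falls were deep, the mutant allele differed from the wild-type allele. The 15 genes that fell more than 4-fold kept 5.93% to 24.0% of their control level with mutant ARGFX (median 17.3%) and 0.0710% to 6.27% with WT ARGFX (median 0.939%). Each of the 15 was higher with mutant than with WT ARGFX when the 2 groups were compared directly at the same thresholds. The 64 genes that fell 2- to 4-fold kept a median of 40.4% against 18.6%, and 44 of them were called in the direct comparison. The 160 genes that fell less than 2-fold kept 59.8% against 48.6%, and 29 of them were called. In all, 88 of the 239 genes were higher with mutant than with WT ARGFX, 1 was lower and 150 were not called, beside 1.38% higher and 0.337% lower among all callable genes. The mutant samples that chose the genes also entered this direct comparison. A mutant sample that lay among the WT ARGFX samples had been left out by the authors, which favours differences between the alleles. ENSBTAG00000014529.5 and ENSBTAG00000016061.4 were at 0.0156 and 0.723 CPM on average with WT ARGFX, and their direct differences of 6.09 and 4.68 on the log2 scale (SE 0.65 and 0.32) had adjusted p of 6.38e-05 and 5.19e-08 by edgeR's quasi-likelihood test. ENSBTAG00000014529.5 had only 1, 0, 1 and 0 counts in the WT ARGFX samples, under the floor of 3 counts. The size of its difference and its share left with WT ARGFX are therefore not measured precisely. One of the WT ARGFX samples without a replicate number stood apart from the others, with a chi-square per degree of freedom of 113 to 136 against each of them and of 6.44 to 8.89 among those 3. Without it, 95 of the 239 genes were higher with mutant than with WT ARGFX and 1 was lower. Of the 239 genes 14 were under 1 CPM with WT ARGFX, against the 3 with the mutant allele.

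**Figure D3:**
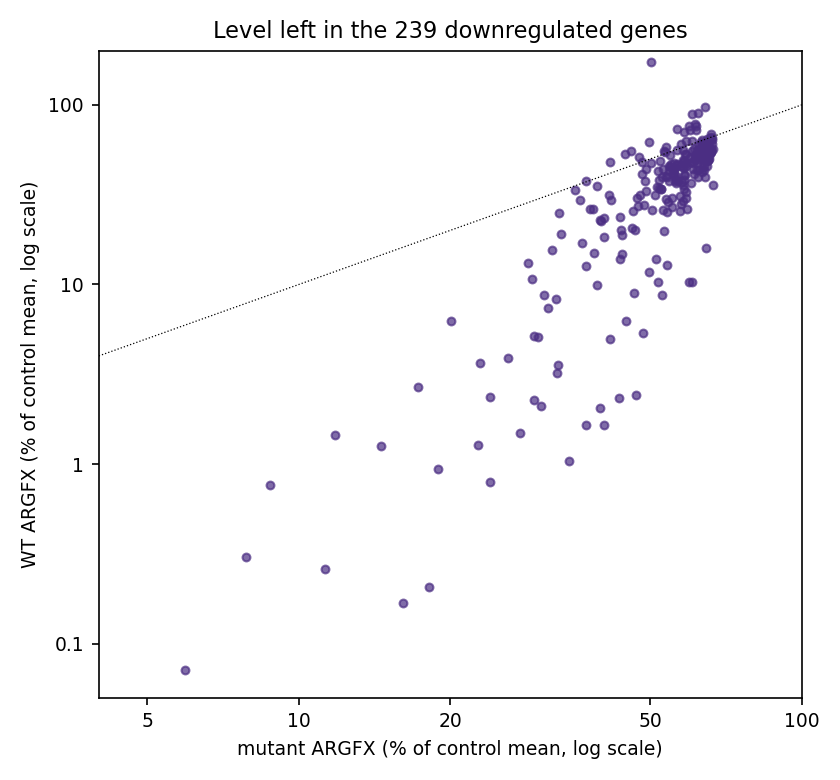
Each of the 239 points is a gene downregulated by mutant ARGFX, with its mean level as a percentage of the control mean with mutant ARGFX on the x axis and with WT ARGFX on the y axis, both on log scales; the dotted line marks equal levels. The genes with least RNA left with mutant ARGFX, 5.93% to 24.0% of control, have 0.0710% to 6.27% left with WT ARGFX, and those above 50% lie nearer the line.

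Few genes were called with the mutant allele and not with the wild-type one, and all these comparisons rest on the same 4 control samples. Of the 114 upregulated genes, 13 were not called up with WT ARGFX, which upregulated 5.46% of all callable genes. All 13 had a positive log2 fold change with WT ARGFX too, from 0.14 to 0.58, and 0 of them were called in the direct comparison of the alleles. Of the 239 downregulated genes, 12 were not called down with WT ARGFX, which downregulated 5.81% of all callable genes, and 11 of these had a negative log2 fold change there. The remaining gene was the 1 that was lower with mutant than with WT ARGFX in the direct comparison, at 172% of the control mean with WT ARGFX. Among the upregulated genes 4 were higher with WT ARGFX in the direct comparison, 3 without the WT ARGFX sample that stood apart, 0 were higher with the mutant allele, and 110 were not called.

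The upregulated genes could be named in part. Symbols were at hand for 69 of the 114, all from a list of genes that the study had picked as upregulated by WT ARGFX against these same control samples. None of the 239 downregulated genes had a symbol. The functions described below are therefore those of genes that WT ARGFX also raised, and the list is not independent evidence of a direction. Of the 220 tested genes with a symbol in the part that was read, 69 rose with mutant ARGFX, 0 fell, and 215 had a log2 fold change above 0. Their median was 0.56 against a median of 0.00914 over all tested genes. Of the 193 of them that could be called 35.8% were upregulated, and the gene groups below are read against that share and median. Among the upregulated genes without a symbol, ENSBTAG00000045998.2 rose most, from 3.26 ± 0.92 to 7.35 ± 1.53 CPM (SD, n = 4 and 3). ENSBTAG00000003192.6 followed, from 4.57 ± 0.73 to 9.70 ± 0.36 CPM (SD, n = 4 and 3). The control means of both genes lay under the expression threshold of 5.37 CPM. The same held for the upregulated IL34, SYNC, SERTAD4, SOX12, MMP12 and MEOX2. All passed in the average over the 15 samples, which includes samples where they were higher.

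Genes of the fibrillar extracellular matrix, the collagen and glycoprotein mesh that fibroblasts secrete, had 24 members with a symbol. Of these 9 were upregulated and 0 downregulated, with a median log2 fold change of 0.59 and all 24 above 0, close to the 35.8% and 0.56 of all the genes with a symbol. ITGA11, the alpha subunit of a collagen-binding integrin, had 10.4, 7.95, 9.55 and 7.29 CPM in the control samples and 21.0, 21.8 and 16.6 CPM with mutant ARGFX. Among the upregulated genes with a symbol it had the largest rise (log2 fold change 1.17, SE 0.18, adjusted p = 0.00064 by edgeR's quasi-likelihood test). COL11A1, a minor fibrillar collagen chain, went from 131, 102, 130 and 109 CPM to 233, 187 and 226 CPM (log2 fold change 0.87, SE 0.19). COL3A1, the chain of type III collagen and the most abundant upregulated gene in counts, went from 3131, 2955, 2504 and 2510 CPM to 4590, 4232 and 3889 CPM (log2 fold change 0.61, SE 0.15). For these 3 genes every mutant sample lay above every control sample. The other 6 were MRC2, an endocytic collagen receptor, the collagen chain COL15A1, the proteoglycan CSPG4, CTHRC1, the microfibril protein FBN1 and the peroxidase PXDN, with log2 fold changes from 0.59 to 0.83.

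COL1A1, COL1A2 and FN1, matrix genes with high counts like COL3A1, were not called. COL1A1, the main chain of type I collagen, was at 13992, 10206, 11408 and 12520 CPM in control and at 17196, 16693 and 14294 CPM with mutant ARGFX. The groups did not overlap, but the log2 fold change of 0.42 had a standard error of 0.16 (adjusted p = 0.118 by edgeR's quasi-likelihood test). COL1A2, its partner chain, differed by 0.49 (adjusted p = 0.0431), a change below 1.5-fold. FN1, which encodes fibronectin, was at 2991, 1734, 3098 and 1997 CPM in control and at 4633, 4096 and 4521 CPM with mutant ARGFX. Its log2 fold change of 0.85 exceeded that of COL3A1, its control samples lay in a high and a low pair, and it missed the threshold (adjusted p = 0.0577 by edgeR's quasi-likelihood test). FN1 passed with DESeq2 (adjusted p = 0.0142), with the control and mutant samples fitted alone (0.0320), with the replicate block (0.0108), without control replicate 3 (0.0452) and without the WT ARGFX sample that stood apart (0.0195), so its call depends on the fit. The 6 fibroblast marker genes with a symbol (of 10 listed) summed to 28274 to 34908 CPM in the control samples and to 39929 to 46431 CPM with mutant ARGFX, and 2 of them, COL3A1 and FBN1, were called. These 6 had a symbol only through the list of genes raised by WT ARGFX. Their sums do not speak for the other listed markers.

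Among contractile and cytoskeletal genes, 13 actomyosin genes of 17 listed had a symbol. Of the 13, 4 were upregulated and 0 downregulated, with a median log2 fold change of 0.57, again near the values of all the genes with a symbol. LMOD1, an actin nucleator of smooth muscle, went from 9.12, 5.67, 8.89 and 9.99 CPM to 18.1, 15.6 and 19.0 CPM (log2 fold change 1.06, SE 0.20, adjusted p = 0.00321 by edgeR's quasi-likelihood test). MYH10, a heavy chain of nonmuscle myosin, went from 274, 148, 260 and 174 CPM to 408, 384 and 436 CPM (log2 fold change 0.94, SE 0.25). The WT ARGFX sample that stood apart was at 260 CPM in this gene against 481 to 497 in the others, and in FN1 at 3578 against 6743 to 7092 CPM. ACTA2, smooth muscle actin, went from 634, 859, 484 and 754 CPM to 1292, 1289 and 1062 CPM (log2 fold change 0.83, SE 0.19). In each the mutant samples lay above the control samples. SYNC, a linker of intermediate filaments, was the fourth. MYH9, the related myosin heavy chain, differed by 0.81 on the log2 scale and missed the threshold (adjusted p = 0.0607 by edgeR's quasi-likelihood test). It passed in the same 5 alternatives as FN1 (adjusted p from 0.00823 to 0.0498; 0.0185 with DESeq2). The 4 smooth muscle and myofibroblast markers with a symbol (of 7 listed) summed to 757 to 1286 CPM in control and 1506 to 1803 CPM with mutant ARGFX, and LMOD1 and ACTA2 were called. These 4 markers too were named only through the list of genes raised by WT ARGFX. Actin and tubulin genes have near-identical copies between which the counting could divide reads, so the split between ACTA2 and ACTG2 is uncertain. ACTA2 was also 1 of the 4 upregulated genes called higher with WT ARGFX (2113 ± 529 CPM, SD, n = 4; direct log2 difference -0.80, adjusted p = 0.0411 by edgeR's quasi-likelihood test). The WT ARGFX sample that stood apart was at 2902 CPM against 1800 to 1923 in the others, and without it the difference was -0.60 and no longer passed (adjusted p = 0.0675).

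Of 8 microtubule genes 1, the microtubule-binding MAP7D1, was upregulated, with a median log2 fold change of 0.53. None of 15 cell division genes was called, 11 of which could have been. Their median log2 fold change was 0.45, below the 0.56 of all the genes with a symbol, and all 15 were above 0 as were 215 of those 220. TOP2A, the topoisomerase of dividing cells, was at 57.7, 47.4, 53.2 and 57.5 CPM in control and 74.5, 66.5 and 77.5 CPM with mutant ARGFX. Its log2 fold change of 0.43 passed the p threshold (adjusted p = 0.0185 by edgeR's quasi-likelihood test) but stayed below 1.5-fold.

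Of 17 genes of amino acid and mitochondrial metabolism 8 were upregulated and 0 downregulated. Their median log2 fold change of 0.56 was that of all the genes with a symbol. PDK2, a kinase that inhibits pyruvate dehydrogenase, went from 6.74, 7.11, 8.24 and 7.32 CPM to 12.4, 13.1 and 15.1 CPM (log2 fold change 0.88, SE 0.10, adjusted p = 7.15e-05 by edgeR's quasi-likelihood test). ASL, the argininosuccinate lyase of the urea cycle, went from 7.81, 7.95, 7.55 and 8.12 CPM to 14.2, 13.3 and 13.2 CPM (log2 fold change 0.79, SE 0.11). Their samples within a group differed little, and the groups were well apart. ALDH1L2 of mitochondrial folate metabolism, the isocitrate dehydrogenase IDH1, the sulphite oxidase SUOX, the malic enzyme ME3, the branched-chain transaminase BCAT2 and the creatine kinase CKB rose by 0.63 to 0.72. PCK2, the mitochondrial enzyme of phosphoenolpyruvate synthesis, had a log2 fold change of 0.43 and was not called (adjusted p = 0.147 by edgeR's quasi-likelihood test), and ALDH1A1, which makes retinoic acid, had one of 0.20 (adjusted p = 0.537).

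Of 12 genes of secreted proteins and signalling, 10 of which could be called, 4 rose, beside the 35.8% of all callable genes with a symbol. LFNG, a glycosyltransferase that modifies Notch receptors, went from 8.91, 8.52, 5.94 and 8.16 CPM to 16.8, 16.5 and 16.5 CPM, with mutant samples close together (log2 fold change 1.07, SE 0.11, adjusted p = 2.86e-05 by edgeR's quasi-likelihood test). IL34, a ligand of the CSF1 receptor, went from 3.53, 2.89, 3.95 and 3.32 CPM to 7.57, 4.94 and 7.14 CPM (log2 fold change 0.94, SE 0.18), with replicate 2 lowest, and was higher still with WT ARGFX (11.9 ± 1.1 CPM, SD, n = 4; direct log2 difference -0.86, adjusted p = 0.0102 by edgeR's quasi-likelihood test). SEMA3E, a secreted guidance cue, and NXPH3, a neurexin ligand, rose by 0.69 and 0.59. Of 10 transcription factors, 8 of which could be called, 3 rose, SOX12 by 0.80, the homeobox gene MEOX2 by 0.76 and the clock gene ARNTL by 0.72, each with mutant samples above all control samples. TYK2, a Janus kinase that carries interferon and interleukin signals, was the only member of an 11-gene JAK/STAT list with a symbol. It went from 22.7, 17.3, 24.6 and 15.8 CPM to 34.7, 28.6 and 33.4 CPM (log2 fold change 0.68, SE 0.17, adjusted p = 0.0180 by edgeR's quasi-likelihood test). Interferon-stimulated and pluripotency genes, and markers of epithelial, endothelial and blood cells, had no symbol here and were not analysed.

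Among the proteases the alleles differed in MMP12 and MMP3. Of 7 proteases and inhibitors with a symbol, out of 15 listed, MMP12, ADAM12 and CAPN1 rose with mutant ARGFX. MMP12, a metalloprotease that degrades elastin, went from 4.60, 3.76, 3.19 and 2.36 CPM to 6.79, 6.44 and 4.81 CPM (log2 fold change 0.78, SE 0.19, adjusted p = 0.0167 by edgeR's quasi-likelihood test). Its mutant replicate 3 lay just above the highest control sample, and with the control and mutant samples fitted alone the call was lost (adjusted p = 0.0579). With WT ARGFX it reached 20.1 ± 1.8 CPM (SD, n = 4), and the direct log2 difference was -1.75 (SE 0.18, adjusted p = 1.17e-05). MMP3, the metalloprotease stromelysin, was at 2.99, 3.43, 1.92 and 1.95 CPM in control and at 3.43, 2.31 and 2.26 CPM with mutant ARGFX. These groups overlapped throughout (log2 fold change 0.04, SE 0.25, adjusted p = 0.935), whereas the 4 WT ARGFX samples held 29.3, 25.6, 37.1 and 42.8 CPM (direct log2 difference -3.67, SE 0.24, adjusted p = 2.69e-08). Metalloproteases are a family of similar genes, so counts could be divided between its members.

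SERPINE2, an inhibitor of serine proteases, IL1RL1, the receptor of interleukin 33, and FST, the activin antagonist follistatin, were like MMP3 in this. SERPINE2 was at 391.9 ± 66.2 CPM in control, 343 ± 52 with mutant ARGFX and 898 ± 137 with WT ARGFX (SD, n = 4, 3 and 4). IL1RL1 was at 99.3 ± 6.0, 105 ± 5 and 218 ± 15 CPM in the same groups. FST was at 38.2 ± 2.3, 31.1 ± 2.1 and 68.4 ± 9.9 CPM. Against control their log2 fold changes with mutant ARGFX were -0.19, 0.08 and -0.30, none past the threshold (adjusted p = 0.465, 0.572 and 0.0845 by edgeR's quasi-likelihood test). FST was lower in all 3 mutant samples than in all 4 control samples. Directly against WT ARGFX the 3 genes differed by -1.39, -1.05 and -1.14 (adjusted p = 2.86e-05, 4.54e-07 and 3.30e-06). Of the 193 genes with a symbol from the part of the list that was read and that could be called, 20 were higher with WT than with mutant ARGFX. In the direct comparison 0 were lower, but the list had been chosen for its rise in the WT ARGFX samples. Of the 46 that WT ARGFX raised more than 2-fold, 23 were called up with mutant ARGFX and 13 were called in the direct comparison.

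**Figure D4:**
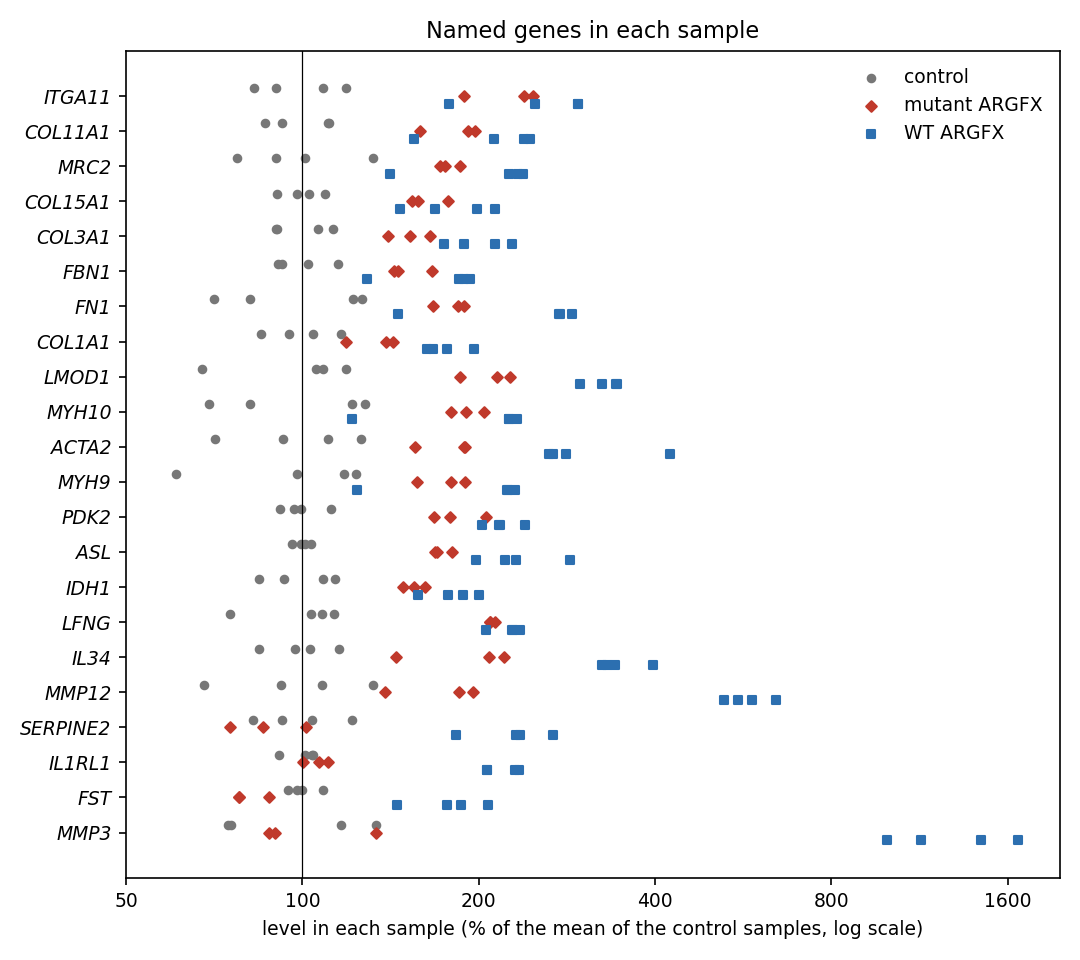
Each symbol is 1 sample, placed at its level as a percentage of the control mean of the gene (log scale): grey circles for control (n = 4), red diamonds for mutant ARGFX (n = 3) and blue squares for WT ARGFX (n = 4). In the upper rows the mutant samples lie to the right of the control samples and near or below most WT ARGFX samples, while for SERPINE2, IL1RL1, FST and MMP3, at the bottom, they lie within or below the control samples or just above them and far from the WT ARGFX samples.

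Single samples and the choice of fit decided some of these calls. Of the 38 named genes that were called, ARGFX and LEUTX apart, 23 kept an adjusted p under 0.05 by edgeR's quasi-likelihood test when each of the 7 samples was left out in turn. Without mutant replicate 1, 14 lost it, MYH10, ACTA2, MRC2, MMP12, ADAM12, ME3, SEMA3E, TYK2, CTHRC1, CKB, MAP7D1, COL3A1, FBN1 and PXDN (adjusted p from 0.0537 to 0.203). Without control replicate 4, 10 of these 14 lost it (0.0507 to 0.0963). Leaving out mutant replicate 2 or 3 removed 9 each, BCAT2 among the latter (0.0571 to 0.156 over both). Leaving out control replicate 1, 2 or 3 removed 2, 5 and 3 (0.0551 to 0.105 over the 3). ITGA11, LFNG, LMOD1, IL34, PDK2, SYNC, SERTAD4, COL11A1, SOX12, ASL, MEOX2, ARNTL, COL15A1, CSPG4, CAPN1, ALDH1L2, SUOX, IDH1, NXPH3 and the 4 genes named by their IDs were those that kept it. With the control and mutant samples fitted alone MMP12, ME3 and SEMA3E lost it (adjusted p from 0.0542 to 0.0826). The fold threshold was not part of these counts. Over the alternative fits the log2 fold change of NXPH3 went as low as 0.52 and that of IDH1 as low as 0.56, below 1.5-fold.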

How the data were processed

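RNA sequencing of primary bovine fetal fibroblasts was analysed from the deposited table of expected counts per gene, which the authors made by trimming reads, quantifying them with kallisto 0.46.1 against the ARS-UCD1.2 transcriptome with ETCHbox sequences added, and summing transcripts with tximport; values were not normalised. Total expected counts ranged from 25947911 to 28163565 in the control samples and were 30758646, 28519622 and 41554242 in the mutant samples. Floors of 3 counts cover counting error only. No samples of a group agreed within sampling noise (chi-square per degree of freedom at least 6.44). This measure ran from 22.5 to 101 between control samples and from 10.7 to 28.1 between mutant samples. Groups came from sample titles, which the column headers repeat.

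Expected counts were rounded and fitted over all 15 samples with edgeR 4.0.16 (R 4.3.3): filterByExpr, TMM, quasi-likelihood test, Benjamini-Hochberg adjustment over all 14264 genes tested. Standard errors derive from the log2 fold change and the F statistic. A called gene averaged over 5.37 CPM, changed more than 1.5-fold and had an adjusted p under 0.05. The CPM level is that passed by as many of 1998 genes as passed a mean TPM of 2 in the study's table (1212 genes, 1151 passing both). Symbols came from the ETCHbox rows and 232 identifiers of the study's list of genes upregulated by WT ARGFX; the RefSeq table (ARS-UCD2.0) matched none.

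Named genes were the ETCHbox rows, called members of the gene lists with up to 4 uncalled members of highest control level, the 10 called genes with a symbol and the largest change, and 2 genes without a symbol per direction. Members and lists were chosen with earlier results of these data known. Alternatives were DESeq2 1.42.0 and its size factors, other filters and thresholds, edgeR's glmTreat, the control and mutant samples alone, a replicate block and leaving out each sample. Leaving out a WT ARGFX sample that stood apart was added after seeing the data.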

Additional observations from a re-analysis of the deposited data

Results flagged for a closer look

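Among the control samples, 4 of the 72 genes named or checked had a sample whose gap to its nearest neighbour, relative to the range of the 4 samples, exceeded Dixon's 95% critical value. Chance flags about 1 in 20 groups. ARGFX was at 0.0381 CPM in control replicate 4 and at 0 in the others, and LEUTX at 0.0356 CPM in control replicate 1 and at 0 in the others, which is 1 count in each case. TUBB2B was at 86.9 CPM in control replicate 3 and between 119.6 and 126.2 CPM in the others. SUOX was at 10.2 CPM in control replicate 3 and between 9.73 and 9.80 CPM in the others.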

How the results depend on the processing

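Of the values recomputed for single named genes, 757 stayed on the same side of the test, 135 no longer passed it, 29 newly passed it and 0 changed direction with a call. The count of upregulated genes was 116, or 136 with DESeq2, 106 with DESeq2's size factors in edgeR, 108 without the filter on low counts, and 102 with the expression threshold set on the control and mutant samples. The count of downregulated genes was 239, or 254, 247, 249 and 258 under the same settings, and DESeq2 shared 108 and 239 of the calls. Without the expression threshold the counts were 180 and 366, without the fold threshold 535 and 725, and with glmTreat 2 and 62, by construction of these settings. Leaving out each sample in turn gave 83 to 167 upregulated and 203 to 279 downregulated genes, and 79 to 97 of the called genes, against 93, differed between the alleles. Of the 116 upregulated genes of the main fit, 70 to 105 stayed called, fewest without mutant replicate 1. Of the 239 downregulated genes 189 to 234 stayed called, fewest without mutant replicate 3. Without the WT ARGFX sample that stood apart, chosen after seeing the data, the counts were 148, 247 and 101. The log2 fold change of ARGFX, 18.66, ran from 18.35 to 20.37 without single samples. With the control and mutant samples alone the counts were 110 and 242, and with the replicate number as a block 164 and 254. The first of these settings shared 99 and 233 calls with the main fit, and the block 91 and 225. Same-numbered control and mutant samples shared deviations with r of -0.05, 0.23 and 0.37. Mutant replicates 2 and 3 correlated best with the control sample of their own number, and mutant replicate 1 with control replicate 2 (r of 0.08). The sample titles state no pairing, and the main fit used none. Transcripts under 3 counts a sample were below what this depth can show.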
